A study of Mus musculus with 10 samples.

Results

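RNA polymerase II (Pol II) peaks were examined at the genes of 3 mouse RNA polymerase III (Pol III) subunits, Polr3g, Polr3gl and Polr3c. A peak counted as a member when it shared at least 1 bp with a fixed mm9 window around one of the genes: chromosome 13 from 81805000 to 81860000 for Polr3g (55.0 kb), chromosome 3 from 96375000 to 96405000 for Polr3gl (30.0 kb) and chromosome 3 from 96505000 to 96540000 for Polr3c (35.0 kb). The windows held 16 of the 45651 Pol II peaks in the 2 lists. Of these, 12 of 32345 came from embryonic stem (ES) cells and 4 of 13306 from primary mouse embryonic fibroblasts (MEFs). All 3 windows held a peak in ES cells and 2 of the 3 did in MEFs, where the Polr3g window had none. For scale, when the genome was cut into consecutive stretches of 55 kb, 23.6% held an ES peak and 19.9% a MEF peak. The rule for membership uses position alone, and the windows also take in neighbouring genes.

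Chromatin immunoprecipitation sequencing (ChIP-seq) was done with an antibody to Pol II (N-20), which binds the amino-terminal part of its largest subunit, in 1 library per cell type. The ES cells were ES-E14TG2a, an established line grown on gelatin with LIF and serum. The MEFs were isolated in-house from E12.5 embryos and kept for 3 to 5 passages in medium that lacked LIF, and the sources used here do not say how many embryos were pooled. No gene was altered and no treatment was compared, so the Pol II lists differ in cell type together with its culture (an established line against primary cells, with and without LIF), which cannot be told apart. With 1 library on each side no test is possible. Every value below therefore describes 2 lists, with no replicate check.

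Pol III makes tRNAs, 5S rRNA and other short non-coding RNAs, while the genes of its own subunits are protein-coding and are transcribed by Pol II. POLR3C, POLR3F and either POLR3G or POLR3GL form a subcomplex that Pol III needs to start transcription, and POLR3G and POLR3GL are paralogs that take the same place in it. POLR3G is known to be abundant in pluripotent cells and to fall on differentiation, whereas POLR3GL is found in most tissues. A Pol II ChIP-seq peak marks DNA where the polymerase was enriched, most often near the start of a gene, and does not measure its RNA.

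RefSeq promoters of build GRCm38.p6, from 250 bases before to 50 after each gene's annotated start, were at hand for all 3 genes. They are shown 5′ to 3′ because they are the stretches through which Pol II enters these genes, with capitals for 3 of the 4 motifs searched.
Polr3g (chr13:81710964-81711263, - strand): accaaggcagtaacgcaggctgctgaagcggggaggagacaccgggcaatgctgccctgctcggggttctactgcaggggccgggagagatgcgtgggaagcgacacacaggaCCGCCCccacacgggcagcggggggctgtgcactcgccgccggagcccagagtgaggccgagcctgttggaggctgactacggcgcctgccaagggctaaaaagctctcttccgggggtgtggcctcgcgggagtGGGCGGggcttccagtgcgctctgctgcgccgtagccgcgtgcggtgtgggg
Polr3gl (chr3:96594132-96594431, - strand): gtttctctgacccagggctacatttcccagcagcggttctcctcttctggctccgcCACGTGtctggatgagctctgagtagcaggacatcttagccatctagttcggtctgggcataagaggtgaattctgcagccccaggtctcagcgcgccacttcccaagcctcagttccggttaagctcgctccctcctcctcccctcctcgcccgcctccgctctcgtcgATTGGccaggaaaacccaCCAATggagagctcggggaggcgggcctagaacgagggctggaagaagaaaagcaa
Polr3c (chr3:96727390-96727689, - strand): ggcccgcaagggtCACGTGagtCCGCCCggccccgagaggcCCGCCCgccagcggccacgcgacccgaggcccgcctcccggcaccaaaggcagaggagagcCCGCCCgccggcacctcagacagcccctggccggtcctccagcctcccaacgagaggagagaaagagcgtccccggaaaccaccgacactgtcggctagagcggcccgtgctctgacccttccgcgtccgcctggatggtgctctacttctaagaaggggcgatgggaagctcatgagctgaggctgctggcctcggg
These positions belong to GRCm38.p6. They were not converted to mm9, so the promoters were not placed among the peaks. The 4 motifs, sought on both strands, were the TATA box written as TATAAA, the CCAAT box by those letters, the GC box written as GGGCGG and the E-box written as CACGTG, and no matches overlapped in these promoters. TATAAA was absent from all 3 and occurs in 13.6% of the 32544 distinct promoters of the table. The Polr3g promoter held 2 GC boxes, the Polr3c promoter 3 and the Polr3gl promoter 0, against 35.9% of all promoters with at least 1. The paralogs thus had no motif of the 4 in common. Polr3gl instead held 2 CCAAT boxes (37.4% of all promoters have 1 or more) and 1 E-box. Polr3c also held 1 E-box, which 7.17% of all promoters carry. The promoters of Polr3g and Polr3c had 26 and 29 CG dinucleotides and that of Polr3gl 16, all above the median of 7 over the table. These are matches of letters only.

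All 3 genes lie on the minus strand in GRCm38.p6, so each starts at its higher position. In that build Polr3g lies between Lysmd3 and Mblac2, Polr3gl between Txnip and Ankrd34a, and Polr3c between Nudt17 and Rnf115, and the gene on the higher side is on the plus strand in each case. No mm9 annotation was used here. The windows could not be checked against one, and no peak was assigned to an exon, an intron, a start site or a particular gene.

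The lists differ in length and their deposited score has no stated scale, so scores were compared only by percentile, the share of peaks of the same list with a lower score. The median score was 122 in ES cells and 132 in MEFs, and the median width 955 bp and 1087 bp. Read depth is unknown. Windows of marker genes, placed from general knowledge of mm9, were used to check the labels. Pou5f1, Nanog and Sox2, which mark ES cells, had peaks in ES cells (3 of 3, highest percentiles 95.3 to 98.8) and none in MEFs (0 of 3). The fibroblast matrix genes went partly against the MEF label: Col1a2 was called only in MEFs (1 peak, percentile 99.6), Col1a1 in neither list, and Fn1 only in ES cells (15 peaks, against 0 in MEFs). These windows were not checked against an annotation. If they are well placed, a gene that fibroblasts are known to express can lack a call in the MEF list.

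At Polr3g, Pol II was called in ES cells at 3 sites and in MEFs at 0. The site with the highest score was at chromosome 13 from 81849212 to 81850755, a peak of 1544 bp with a score of 384.49, at rank 5902 of 32345 (percentile 81.8). It lay 44.2 kb from the lower edge of the window and 9.24 kb from the upper edge, on the side where a minus-strand gene starts. Mblac2, on the plus strand, is the next gene on this side in GRCm38.p6. Pol II of Mblac2 cannot be told apart from that of Polr3g here. The other peaks, at 81830421 to 81831181 (761 bp, score 65.75, percentile 19.0) and 81809871 to 81810661 (791 bp, score 57.49, percentile 9.33), were narrow and near the lowest score in the list, which is 50. Together the 3 peaks covered 3096 bases, or 5.63% of the window.

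None of the 3 sites overlapped a MEF peak, and the nearest MEF peak to the strongest site was 51.2 kb away. Over the whole list 27.0% of ES peaks overlap a MEF peak. That share climbs with the score, from 8.69% (95% exact binomial interval 7.74 to 9.71%) in the lowest score decile to 58.9% (57.2 to 60.6%) in the highest. In the decile of the strongest Polr3g peak, the ninth of the 10, it was 49.6% (47.8 to 51.3%). Lack of a MEF partner was therefore about as common as its presence among ES peaks of this score. Cut into consecutive tiles of 55 kb, the genome had an ES peak in 23.6% of tiles, a MEF peak in 19.9% and more ES than MEF peaks in 17.2%. Tiles with 3 or more ES peaks numbered 4279 (9.18% of all), and 1005 of them (23.5%) had no MEF peak. Tiles with 3 or more ES peaks and no MEF peak were thus 2.16% of all tiles. The windows were placed on genes and the tiles were not, so the tiles are a loose background.

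The MEF library did have calls on both sides of Polr3g. On the lower side the nearest ES peak, 6.34 kb outside the window, was weak (81798038 to 81798656, percentile 16.2) and had no MEF partner. Slightly farther, at 7.03 kb, a MEF peak from 81796257 to 81797972 (1716 bp, score 367.38, percentile 88.4) overlapped an ES peak from 81795089 to 81797122 (2034 bp, percentile 94.3). On the upper side, 61.5 kb outside, the MEF peak from 81921508 to 81923291 was the list's rank 124 (score 851.84, percentile 99.1) and met an ES peak of percentile 95.6. These neighbours thus stood high in both cell types, and the sites between them were called in ES cells only. The stretch free of MEF peaks between them was 124 kb long. The median on chromosome 13 was 59.5 kb, and 198 of 561 such gaps were longer. A gap that spans an empty window of 55.0 kb is longer than that by choice, so this comparison cannot show whether it is unusual.

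**Figure D1:**
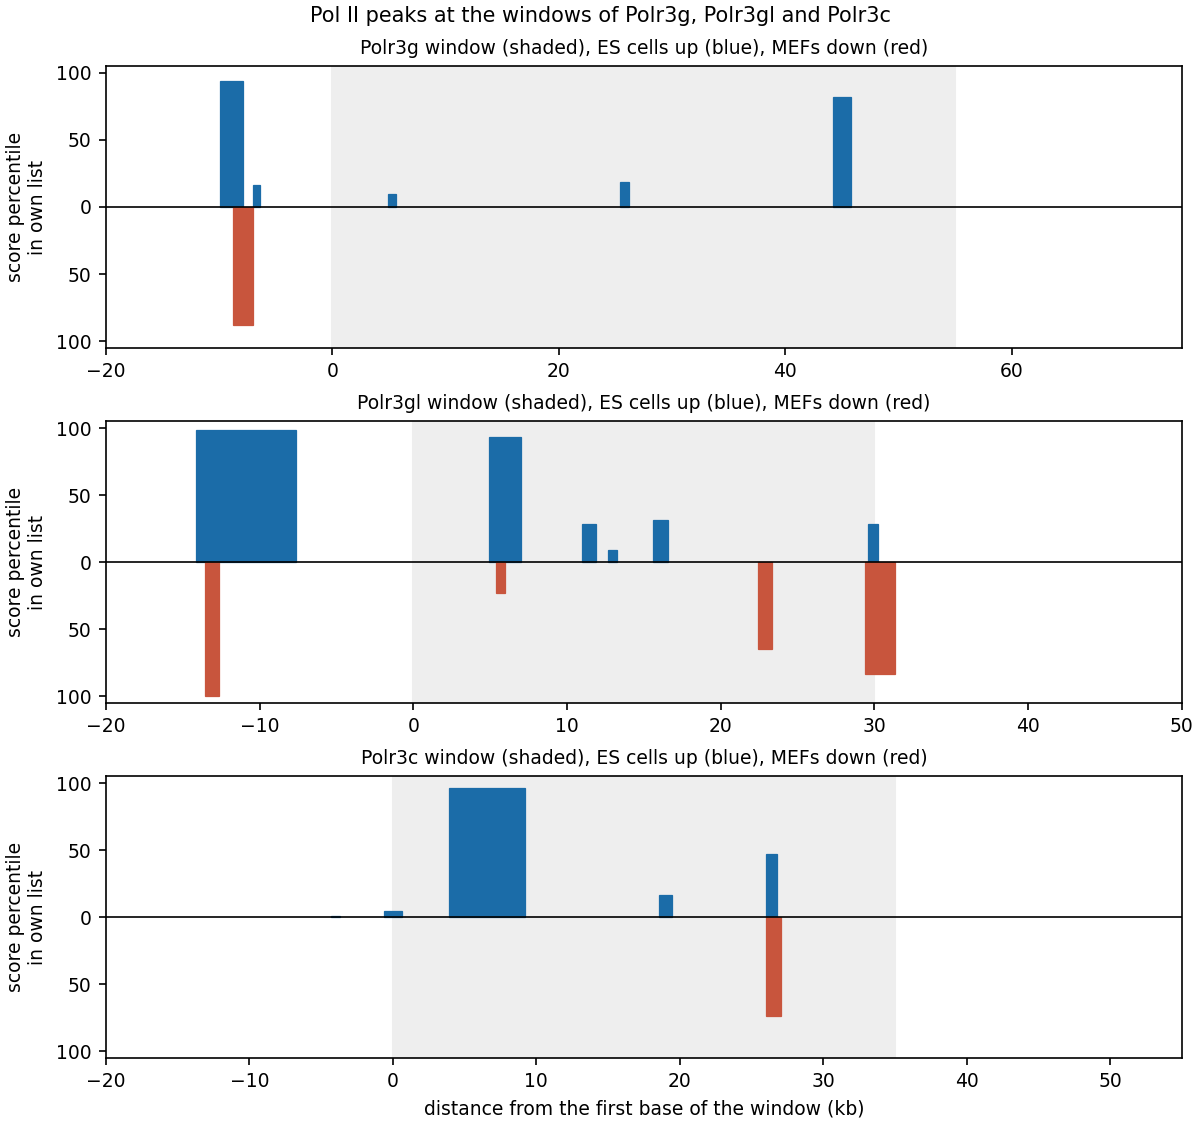
Pol II peaks at the windows of Polr3g, Polr3gl and Polr3c (shaded) and 20 kb to each side, by distance from the first base of the window in kb. Bars have the width of the peak and the height of its score percentile in its own list, with ES cells above the line and MEFs below it. The Polr3g window holds 3 ES bars and no MEF bar, and the tallest bars of the Polr3gl window lie at opposite ends in the 2 cell types.

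In the Polr3gl window, Pol II was called in both cell types, with 5 peaks in ES cells and 3 in MEFs. The highest scores of the 2 lists lay at opposite ends of the window. The ES peaks covered 4915 bases (16.4% of the window) and the MEF peaks 2085 bases (6.95%). In tiles of 30 kb, 16.8% had an ES peak, 12.9% a MEF peak and 12.2% more ES than MEF peaks, and 2.11% had at least 5 ES peaks and 0.451% at least 3 MEF peaks.

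The strongest ES peak was near the lower edge, on the side of Txnip, where a minus-strand gene would end. It ran from 96379913 to 96382010 on chromosome 3 (2098 bp, score 939.51, rank 2169, percentile 93.3). A MEF peak lay wholly within it, from 96380401 to 96380956, but was only 556 bp wide and scored 72.42 (rank 10256 of 13306, percentile 22.9). The site was thus in score decile 10 of the ES list and in decile 3 of the MEF list. Its percentile was 70.4 points higher in ES cells, and only 3.54% of the 8914 overlapping ES and MEF pairs had a larger difference in that direction. The median difference over all pairs was 5.75 points, with quartiles of -10.1 and 28.3. The lists differ in length. At equal list length, an alternative added after seeing the data, the difference at this site was 60.8 points (83.7 against 22.9), with 4.11% of 6037 pairs higher and a median of -6.64.

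At the upper edge the order was turned around. The MEF peak from 96404393 to 96406353 (1961 bp, score 314.93, rank 2158, percentile 83.8) was the strongest of the MEF peaks in any of the 3 windows. The ES peak within it, from 96404578 to 96405259, was 682 bp wide and scored 76.86 (percentile 28.3). Its percentile was 55.5 points lower in ES cells (a difference of -55.5), and 2.96% of all pairs had a lower value. Both peaks cross the edge of the window, and Ankrd34a is the next gene on that side. The centre of the MEF peak falls outside, and without it the strongest MEF peak is the next one described. The ES peaks of the 2 shared sites are 22.6 kb apart, so 2 neighbouring sites had opposite orders between the lists.

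Between the 2 shared sites each list had peaks of its own. In MEFs a peak from 96397422 to 96398342 (921 bp, score 188.8, percentile 64.6) lay 6.66 kb from the upper edge. This is the side where a minus-strand gene would start. The nearest ES peak to this MEF peak was 5.87 kb away. Of all MEF peaks, 62.1% overlap an ES peak, and in the score decile of this MEF peak 72.3% do (69.8 to 74.7%). It is the only one of the 4 MEF peaks in the windows without an ES partner. In ES cells 3 weak peaks followed each other at 96386000 to 96386879 (score 76.9, percentile 28.3), 96387674 to 96388224 (score 57.06, percentile 8.90) and 96390587 to 96391549 (score 81.79, percentile 31.7). They were 551 to 963 bp wide, and none met a MEF peak, in deciles where 8.69 to 14.6% of ES peaks do.

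Outside the window, 7.63 kb below it on the side of Txnip, the ES list had a peak of 6486 bp with a score of 3100, a value that 370 ES peaks share and 24 exceed (percentile 98.8). In MEFs a peak of 878 bp within it had rank 50 (score 1073.24, percentile 99.6). Widths differed 7.39-fold there, and because of the tied ES scores the percentiles of this pair say little about its order. Above the window, 28.3 kb away in ES cells and 28.1 kb in MEFs, the next peaks overlapped each other (percentiles 87.4 and 70.4). Over all pairs the median ratio of ES to MEF width was 0.984 (quartiles 0.640 and 1.45), and at the lower shared site of Polr3gl it was 3.77.

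**Figure D2:**
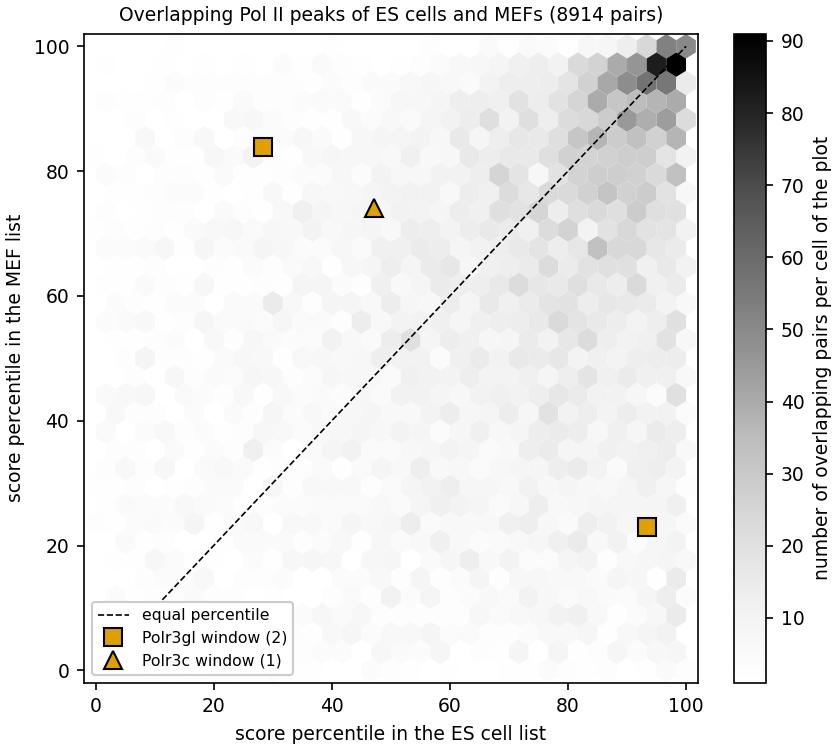
Score percentiles of all 8914 overlapping pairs of Pol II peaks (grey, darker for more pairs) in ES cells (horizontal axis) and MEFs (vertical axis), with the 3 pairs of the windows as yellow symbols and the line of equal percentiles dashed. The 2 Polr3gl pairs lie far from the line on opposite sides (93.3 against 22.9, and 28.3 against 83.8), and the Polr3c pair lies above it (47.1 against 74.1).

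At Polr3c, the gene of the subunit that partners with either paralog, ES cells had 4 Pol II peaks and MEFs 1. The ES peaks covered 7643 bases (21.8%) and the MEF peak 1039 bases (2.97%). Of 35 kb tiles, 18.4% had an ES peak, 14.6% a MEF peak, 13.3% more ES than MEF peaks and 3.90% at least 4 ES peaks.

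One site was called in both lists, on the upper side of the window where a minus-strand gene would start. The MEF peak ran from 96531038 to 96532076 (1039 bp, score 239.08, rank 3449, percentile 74.1) and the ES peak from 96530983 to 96531774 (792 bp, score 113.39, rank 17102, percentile 47.1). They shared 737 bp, or 93.1% of the ES peak and 70.9% of the MEF peak, and their centres were 178.5 bp apart. The site thus stood lower in the ES list than in the MEF list, by 26.9 points (a difference of -26.9, with 12.1% of all pairs lower). Rnf115, on the plus strand, is the next gene on this side in GRCm38.p6, and Pol II of this gene cannot be told apart from that of Polr3c here.

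The strongest ES peak of the 3 windows was also at Polr3c, from 96508917 to 96514246, with a width of 5330 bp (rank 836 by width, percentile 97.4), a score of 1398.37 and rank 1281 (percentile 96.0). It lay 3.92 kb from the lower edge, on the side of Nudt17, and the nearest MEF peak was 16.8 kb away. Among ES peaks of the highest score decile, 41.1% likewise had no MEF partner. The last ES peaks, from 96523581 to 96524477 (897 bp, score 63.77, percentile 16.6) and from 96504404 to 96505623 (1220 bp, score 53.38, percentile 4.63), were weak, and the second crosses the lower edge. Outside the window the next peaks on the upper side were 169 kb away in MEFs (percentile 52.6) and 60.9 kb in ES cells (10.7). On the lower side they were 37.2 kb away in MEFs (14.7) and 3.67 kb in ES cells (0.649).

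Side by side, the strongest peak of each window stood in the order Polr3c (percentile 96.0), Polr3gl (93.3) and Polr3g (81.8) in ES cells, and Polr3gl (83.8) and Polr3c (74.1) in MEFs, with none at Polr3g. The MEF order turns when only peaks with their centre in the window count, since the strongest at Polr3gl is then at percentile 64.6. In ES cells the strongest peaks at Polr3c and Polr3gl lay near the lower edge, away from where a minus-strand gene would start. The ES peaks nearest the upper edge were at percentile 47.1 for Polr3c, 28.3 for Polr3gl and 81.8 for Polr3g. The orders are thus of windows, and no peak was assigned to a gene. No spread over samples exists by which neighbours in these orders could be separated. The highest peak of a window was at a different site in the 2 cell types for both Polr3gl and Polr3c. For the paralogs, the ES list had peaks in both windows and the MEF list in that of Polr3gl only. Of 55 kb tiles with 3 or more ES peaks, 23.5% likewise had no MEF peak. Within the Polr3gl window, the MEF peak 6.66 kb from the upper edge had no ES partner, and the nearest ES peak was 5.87 kb away. The calls therefore do not show Pol II at the start of Polr3gl in ES cells.

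Most member peaks of ES cells were weak. Of the 12, 9 scored below the median of the list and 8 below 100, while 2 were in the highest decile. Scores below 100 are common in the whole ES list, where decile 4 of 10 ends at 96.18. Of the 4 MEF peaks, 1 was below the median of its list. Widths ran from 551 to 5330 bp in ES cells (median 888.5 bp) and from 556 to 1961 bp in MEFs (median 980 bp). In both lists wide peaks tend to have high scores, as the plot of width against score shows, and a rank by score is therefore in part a rank by width. Within the widest quartile of ES peaks, of which it is among the narrowest, the strongest Polr3g peak was at percentile 44.5.

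**Figure D3:**
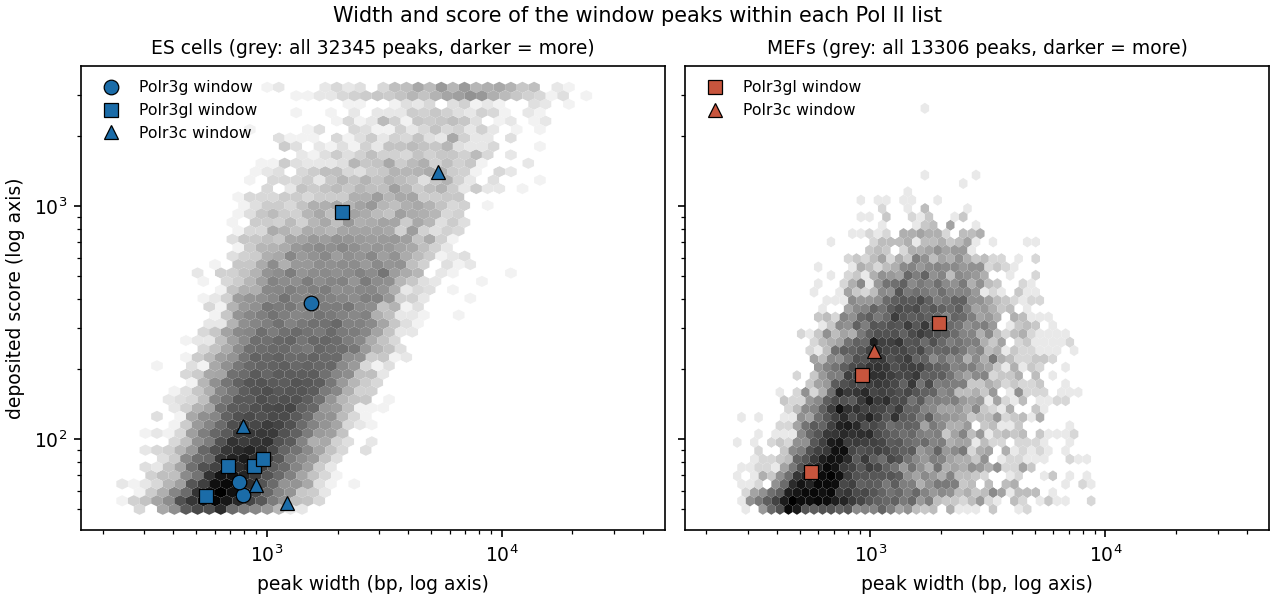
Width in bp (horizontal, log axis) and deposited score (vertical, log axis) of all Pol II peaks of ES cells (left) and MEFs (right) in grey, with the peaks of the windows as symbols. Of the 12 ES symbols 8 lie below a score of 100, and the 3 strongest, one for each gene, are also the widest of their windows.

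A MEF peak was met by 3 of the 12 ES peaks (25%), against 27.0% of the whole list. An ES peak was met by 3 of the 4 MEF peaks (75%), against 62.1%. Both shares are near those of their lists at these numbers. The surplus of ES peaks did not hold at equal list length. When the ES list was reduced to its 13306 highest-scored peaks, which removed scores below 156.53, ES cells kept 1 peak in each window and MEFs had 0 at Polr3g, 3 at Polr3gl and 1 at Polr3c. The totals were then 3 in ES cells and 4 in MEFs, so the direction turned, and 44.2% of the ES peaks had a MEF partner over the whole list. The Polr3g site was still called in ES cells alone, whereas the shared Polr3c site became a call of MEFs alone. At this length 1 shared site was left at Polr3gl, the one near its lower edge.

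**Figure D4:**
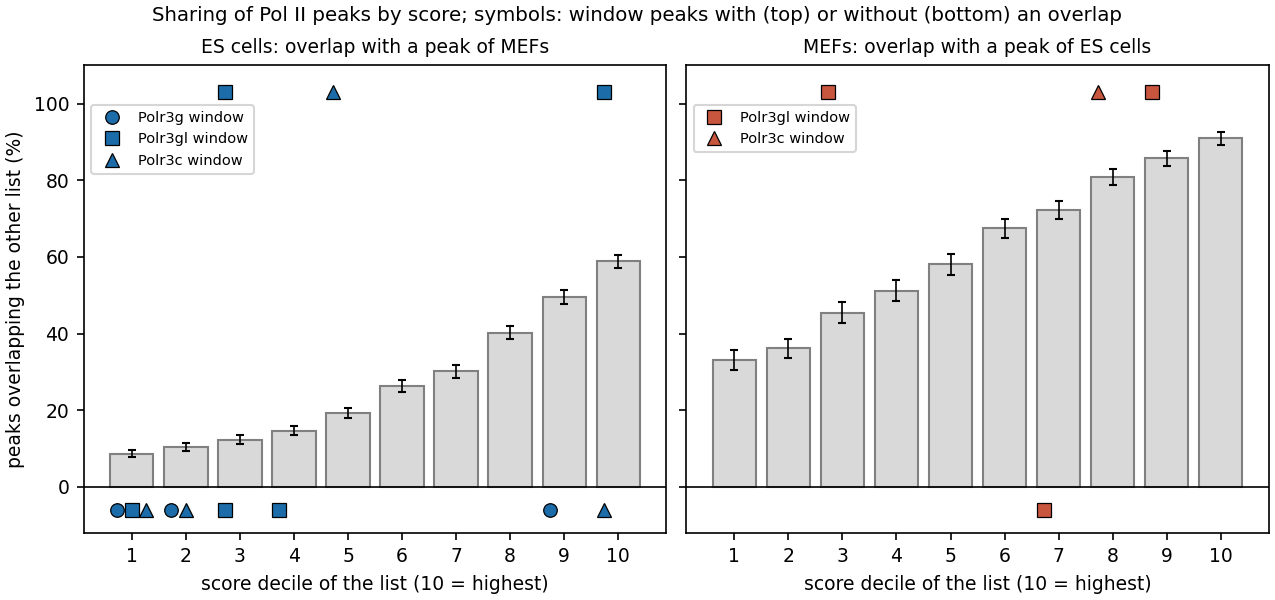
Share of Pol II peaks that overlap a peak of the other cell type, by score decile of their own list (bars, with 95% exact binomial intervals), for ES cells (left) and MEFs (right). Symbols mark the window peaks with such an overlap (top) and without (bottom), shifted sideways within a decile where several fall together. In ES cells the share runs from 8.69% to 58.9%, and the Polr3g peak of decile 9 and the Polr3c peak of decile 10 are the high-scoring peaks without a partner.

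None of the 6 Pol III peak lists (POLR3C, POLR3G and POLR3GL in each cell type) had a peak in any of the windows. The nearest Pol III peaks to Polr3gl were 69.4 to 70.0 kb below its window, in the 5 lists with peaks on this chromosome. From the Polr3c window the same peaks were 199 to 200 kb away. On chromosome 13 the nearest to Polr3g was a POLR3C peak of MEFs 23.2 Mb away. The lists are short, with 13 to 317 peaks, and only 0.419% of 55 kb tiles, 0.247% of 30 kb tiles and 0.288% of 35 kb tiles held a peak of any of them. A count of 0 is thus what nearly any window of this size would give.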

How the data were processed

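Pol II ChIP-seq peak lists of ES-E14TG2a cells and primary MEFs, 1 library each, were used, with the 6 Pol III lists for distances. The 2 inputs were not used here. Per the submitters' processing notes, CASAVA 1.8, Bowtie, SAMtools and HOMER were used with build mm9. Peak names in the deposited Pol II files begin with MACS, and the sources used here give no thresholds, controls or pooling. The deposited score per peak has a minimum of 50 and no stated scale, so it was used for ranks within a list. Peak names are numbered without a gap, 1 to 32345 and 1 to 13306. Starts were read as 0-based and are printed 1-based. The overlap minimum was 1 bp. Tiles ran from the first to the last base covered by any list on each chromosome. Intervals are exact Clopper-Pearson 95% intervals and cover counting error over peaks only.

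The genes, windows, marker lists and comparisons were chosen with earlier results of these data known. Every Pol II peak in a window is described, with the distance and percentile of the nearest outside it. The planned list of other Pol III genes and the search for genes of like pattern were not run, for want of mm9 gene positions. Alternatives were equal list length, a median score limit, peak centres, wider windows or peaks, joined peaks, a 50% overlap and other ranks. Python 3.11.15, numpy 2.4.6, scipy 1.17.1 and pandas 2.3.3 were used, and functions were tested on simulated data.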

Additional observations from a re-analysis of the deposited data

How the results depend on the processing

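Of 92 recomputed values for 26 results, 50 stayed within 1.5 times a count or within the counting interval of the reported value, and 42 moved. The absence of MEF peaks at Polr3g, and of shared peaks there, held under every alternative except windows widened by 10 kb on each side, which gave 1 MEF and 5 ES peaks. With equal list length, and likewise with peaks at or above the median score, ES counts were 1 at Polr3g, 1 at Polr3gl and 1 at Polr3c, and bases covered in ES cells were 1544, 2098 and 5330. The median score limit also left 1529 bases at Polr3gl in MEFs. Shared peaks at Polr3gl became 1 with equal list length and 0 with the median limit, and at Polr3c 0 with both, counted from either list. Counts did not move with peak centres or with peaks joined at 1 kb, nor sharing with a 50% overlap or peaks widened by 500 bp, within that margin.

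The percentile of the strongest peak was, in ES cells, 80.2, 92.1 and 95.6 for Polr3g, Polr3gl and Polr3c among peaks of the same chromosome, 44.5, 75.8 and 85.2 among peaks of the same width quartile, 76.3, 86.0 and 97.4 when ranked by width, and 55.6, 83.7 and 90.4 with equal list length. In MEFs it was 68.6 for Polr3gl and 82.3 for Polr3c within the width quartile, 81.1 and 46.9 by width, and 75 for Polr3c within the chromosome. Counting only peaks with their centre in the window, an alternative added after seeing the data, moved the MEF value of Polr3gl to 64.6. Equal list length, also added, moved the difference between the lists at its lower shared site from 70.4 to 60.8 points, and gave no value for the other 2 shared sites, whose ES peaks were removed. The strongest MEF peaks of Polr3gl (1961 bp) and Polr3c (1039 bp) fall in different width quartiles. Their percentiles within the quartile therefore give no order between the 2 windows. No paired analysis was possible because each group has 1 library. Depth is unknown, so a missing call does not show absence of Pol II.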
